A study of Mus musculus with 28 samples.

Results

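The 10 genes described here encode the neuropeptides and marker proteins by which hippocampal inhibitory interneurons are commonly told apart: Sst, Npy, Vip, Cck, Penk, Pdyn, Tac1, Pvalb, Gad1 and Gad2. They were taken by symbol from the platform's gene table, each was measured by 1 transcript cluster, and together they are 10 of the 19938 genes tested. RNA came from the hippocampi of female C57/DBA F1 hybrid mice of 3 months of age, either cbp+/-, with a disrupted copy of the gene for the coactivator CBP, or wild-type littermates, and was hybridised to 28 arrays (Affymetrix Mouse Gene 1.0 ST). For each genotype, 3 arrays came from mice given the histone deacetylase inhibitor trichostatin A (TSA, 2.4 mg/kg, intraperitoneal) and then left to explore an unfamiliar toy-filled box alone (novelty), 3 from mice given vehicle (DMSO and saline) and novelty, 3 from mice given TSA and left in the standard cage, and 5 from standard-cage controls. Novelty began 15 min after the TSA injection and lasted 1 h, and tissue was taken 75 min after TSA. Control replicates 1 and 2 of either genotype were naive, and 3 to 5 had received vehicle. RNA of 3 to 4 mice was combined for an array, and errors below are therefore between pools, not single mice. Since the whole hippocampus was taken, fewer cells of a type and less RNA per cell cannot be told apart in any value below.

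Interneurons release GABA, which the glutamate decarboxylases GAD67 (from Gad1) and GAD65 (from Gad2) make, and most also store 1 or more neuropeptides in dense-core vesicles. In the hippocampus, somatostatin and neuropeptide Y mark cells that contact dendrites, vasoactive intestinal peptide marks cells that mainly contact other interneurons, and the calcium-binding protein parvalbumin marks fast-spiking cells that contact cell bodies. Cholecystokinin marks a further class of basket cells and is also made by some excitatory neurons, as are prodynorphin and proenkephalin, the precursors of opioid peptides, and the tachykinin precursor from Tac1. Several of these peptide genes are textbook targets of cAMP signalling through CREB, the transcription factor that recruits CBP, which is a histone acetyltransferase.

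The labelled tissue was checked against its markers. Over the 28 arrays the log2 levels of the dentate marker Prox1 ran from 7.75 to 8.99 and of the CA1 marker Wfs1 from 7.43 to 8.88. Those of the glutamate transporter gene Slc17a7 ran from 10.45 to 11.83 and of the GABA transporter gene Slc32a1 from 7.73 to 8.50. All of these values lay above the medians of the arrays over all clusters (5.46 to 5.63). Crebbp, the gene for CBP, ran from 8.97 to 9.77 in the arrays labelled cbp+/- and from 8.68 to 9.70 in wild-type arrays. The ranges overlapped, with both the lowest and the highest value higher under the cbp+/- label. The position of its probes relative to the disrupted part is not stated in the labels. In 3 arrays the markers of choroid plexus, a tissue beside the hippocampus, stood 1.28 to 1.56 above their group's median (log2): cbp+/- cage TSA replicate 1, cbp+/- control replicate 3 and wild-type novelty TSA replicate 1.

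The arrays also formed 4 sets, of which only the first follows a treatment label. The 4 naive arrays made up set 1, and sets 2, 3 and 4 had 8 arrays each, with 1 array of every group. No label names these sets. They were known from an earlier analysis of the same values, and differences are therefore given both from the fit of the 8 group means alone and with array set as a block. Within sets 2, 3 and 4, Crebbp was higher in the cbp+/- than in the wild-type array of each condition, with 1 exception. The exception was novelty with vehicle in set 2, at 9.38 in cbp+/- against 9.70 in wild type.

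The stretches before the transcription starts bear on these genes because CREB binds the palindrome TGACGTCA and its half-site, TGACG or CGTCA on the printed strand. CREB was first isolated through its binding to this palindrome in the rat Sst promoter. RefSeq windows (GRCm38.p6) of 250 bases upstream of the start were found for 9 of the 10 genes, and 5 held at least 1 half-site. These 5 are shown 5′ to 3′ in the direction of transcription, with the half-sites in capitals, and the last base is position -1.
Sst, chr16:23890845-23891094, minus strand: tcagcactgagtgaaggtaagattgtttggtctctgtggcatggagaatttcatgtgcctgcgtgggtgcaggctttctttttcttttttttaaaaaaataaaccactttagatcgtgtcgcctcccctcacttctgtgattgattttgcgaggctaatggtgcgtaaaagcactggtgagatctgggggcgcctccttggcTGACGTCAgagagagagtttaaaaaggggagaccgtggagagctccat
Vip, chr10:5638968-5639217, plus strand: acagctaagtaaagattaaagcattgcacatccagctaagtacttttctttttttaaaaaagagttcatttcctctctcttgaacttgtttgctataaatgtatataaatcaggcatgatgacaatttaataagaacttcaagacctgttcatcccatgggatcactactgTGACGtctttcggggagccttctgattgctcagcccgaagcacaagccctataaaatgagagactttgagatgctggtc
Cck, chr9:121495695-121495944, minus strand: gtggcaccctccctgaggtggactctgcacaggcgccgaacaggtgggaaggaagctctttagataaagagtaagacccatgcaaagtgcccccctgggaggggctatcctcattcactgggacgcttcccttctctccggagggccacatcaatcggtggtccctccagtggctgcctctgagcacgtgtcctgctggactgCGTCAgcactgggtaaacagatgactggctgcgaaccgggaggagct
Tac1, chr6:7554811-7555060, plus strand: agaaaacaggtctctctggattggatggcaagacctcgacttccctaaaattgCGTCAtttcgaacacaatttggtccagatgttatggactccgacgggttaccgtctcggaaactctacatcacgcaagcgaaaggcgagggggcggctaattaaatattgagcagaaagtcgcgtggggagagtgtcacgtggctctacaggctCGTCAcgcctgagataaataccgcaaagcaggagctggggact
Gad2, chr2:22622077-22622326, plus strand: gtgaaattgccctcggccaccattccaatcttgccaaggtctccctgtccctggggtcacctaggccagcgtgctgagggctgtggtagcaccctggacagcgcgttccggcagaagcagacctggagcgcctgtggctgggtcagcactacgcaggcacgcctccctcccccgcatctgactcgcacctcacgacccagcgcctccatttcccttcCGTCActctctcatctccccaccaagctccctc
In Sst the 2 half-sites, which begin at positions -48 and -45, overlap and form the palindrome. Single half-sites begin at -79 in Vip, -47 in Cck and -33 in Gad2, and Tac1 has 2, at -197 and -43. The windows of Npy, Gad1, Pvalb and Pdyn held neither motif. Among all 32851 windows of the table, 1.55% held the palindrome and 17.8% held at least 1 half-site on either strand. These matches describe letters and do not show that a factor bound there.

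Most of the spread of these genes lay between the array sets and not between the groups. For Sst, array set accounted for 92.7% of the variance over the 28 arrays, and 338 of the 19938 genes had a larger share. The share was 89.2% to 89.8% for Cck, Tac1, Gad1 and Gad2, 81.5% for Npy, 61.4% for Vip and 56.2% for Penk, against a median of 43.8% over all genes. Pvalb (42.1%) and Pdyn (38.9%) were below that median.

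The sets differed gene by gene. Sst ran from 11.12 to 11.30 in set 2, above every array of set 1 (10.36 to 10.55), set 3 (10.29 to 10.49) and set 4 (10.46 to 10.85). Tac1 was split another way, with 6.43 to 6.82 in set 1 and 6.65 to 7.22 in set 4, both above every array of set 2 (5.70 to 6.04) and set 3 (5.39 to 6.10). Gad2 ran from 9.11 to 9.38 in set 2 and from 8.40 to 8.72 in set 4, and Gad1 from 9.92 to 10.13 in set 2 and from 9.50 to 9.69 in set 4, so set 4, with the highest set mean of Tac1, had the lowest set means of both. Cck was lowest in set 3, at 10.75 to 10.95, against 11.16 to 11.64 in the other sets. Vip was highest in set 4, at 6.06 to 6.46. Over all arrays Vip (5.72 to 6.46) and Pdyn (5.51 to 6.10) lay near the medians of the arrays over all clusters (5.46 to 5.63). So did Tac1 in sets 2 and 3. Such levels do not show detection, which limits the differences given below for these genes.

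**Figure D1:**
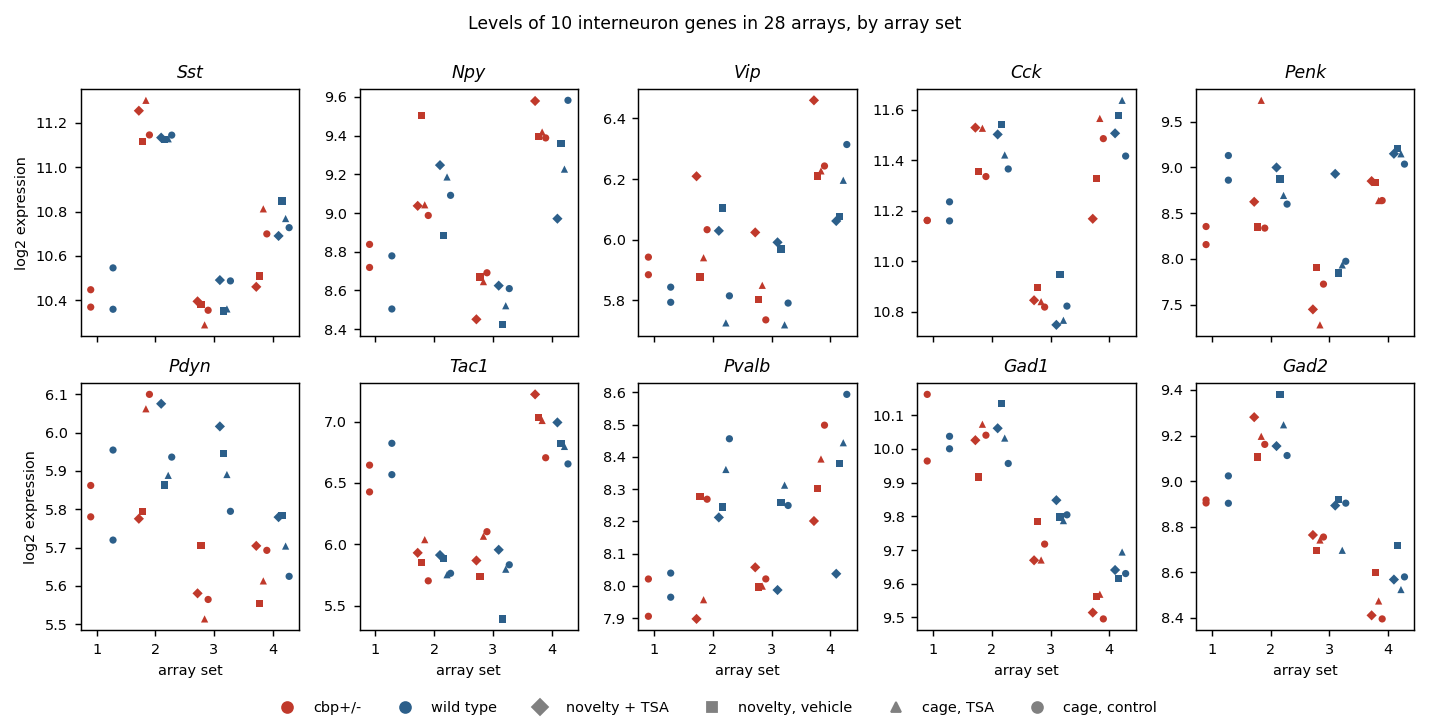
Log2 expression of each gene in all 28 arrays, 1 panel per gene, by array set on the horizontal axis (red, cbp+/-; blue, wild type; the marker shape gives the condition). The sets separate Sst, Tac1, Gad1 and Gad2 more widely than colours or shapes do: every Sst value of set 2 is at or above 11.12, and all others are at or below 10.85.

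Group means were then set against the spread between arrays of a group. For Sst the highest group mean was 10.80 ± 0.51 in cbp+/- mice after TSA in the cage (SD, n = 3) and the lowest was 10.60 ± 0.33 in cbp+/- controls (SD, n = 5), a span of 0.20 against a residual SD of 0.38 in the fit without the block, an SD that still holds the spread between sets. The spans of Npy (0.30), Cck (0.17), Tac1 (0.34), Gad1 (0.15) and Gad2 (0.20) were likewise below the residual SDs without the block, of 0.41, 0.33, 0.59, 0.23 and 0.31. For Vip (0.35 against 0.20), Pvalb (0.32 against 0.20), Pdyn (0.27 against 0.17) and Penk (0.78 against 0.62) the span exceeded the SD. No 2 neighbours in the order of group means of any of the 10 genes differed by more than its residual SD without the block. With the block the residual SDs were smaller, from 0.07 for Gad1 to 0.37 for Penk (0.10 for Sst), and every span exceeded its SD. Neighbours then differed by more than the SD for Vip, Gad1 and Gad2. These spans are of group means from which set differences were not taken, whereas the block SDs leave set differences out. Only the control groups hold arrays of set 1, so the spans can include set differences and are not like for like with the block SDs.

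The first comparison asked whether the interneuron genes responded to 1 h of novelty, with the difference averaged over both genotypes and over TSA and no TSA. By limma, 0 of the 10 genes passed an adjusted p of 0.05, against 0.191% of all genes (38, all higher), and 0 had an unadjusted p under 0.05. With array set as a block 0 of 10 passed, against 0.476% of all genes (95), and 2 of the 10 had an unadjusted p under 0.05, as did 8.21% of all genes. The same arrays showed the response of activity-induced transcription factors: with the block, Npas4 was higher after novelty by 1.70 ± 0.06 (SE, limma adjusted p = 1.44e-16) and Fos by 1.34 ± 0.09 (adjusted p = 4.16e-10), and 9 of 9 genes of the activity list rose (7 of 9 without the block).

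The peptide gene Sst, expressed by dendrite-targeting interneurons, gave a narrow interval. Sst had a lowest value of 10.35, a median of 10.60 and a highest value of 11.25 in the 12 novelty arrays, against 10.29, 10.62 and 11.30 in the 16 standard-cage arrays. With the block the novelty level was 0.973-fold the cage level, with a 95% interval of 0.914 to 1.04. The intervals of Cck (0.936 to 1.06), Gad1 (0.955 to 1.06), Gad2 (0.986 to 1.10) and Npy (0.90 to 1.08) also held 1. Over the 10 genes the block intervals of the log2 difference ran from -0.24 to 0.37 at their ends, and the median difference was 0.01, against 0.0014 for all genes.

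The interneuron-selective peptide gene Vip and the fast-spiking marker Pvalb came nearest to the threshold, in opposite directions. Vip had a lowest value of 5.80, a median of 6.05 and a highest value of 6.46 in the novelty arrays, against 5.72, 5.87 and 6.31 in the cage arrays, and the housings overlapped. With the block its difference was 0.10 ± 0.04 (SE, limma adjusted p = 0.534), made of 0.18, 0.17 and -0.04 within sets 2, 3 and 4, and without the block it was 0.13 (adjusted p = 1.00). Pvalb had 7.90, 8.21 and 8.38 in the novelty arrays, against 7.91, 8.26 and 8.59 in the cage arrays. Its block difference was -0.14 ± 0.05 (limma adjusted p = 0.286), with -0.10, -0.07 and -0.25 within the sets. Without the block it was -0.07 (adjusted p = 1.00), and with array weights -0.0005. Neither passed.

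Within single genotypes, without TSA, the count was again 0 of 10. In cbp+/- mice 0.0251% of all genes passed (0.0853% with the block), and in wild-type mice 0.0351% (0.11% with the block). With the block 0 of the 10 genes had an unadjusted p under 0.05 in either genotype. These comparisons share their control arrays with the TSA comparisons in the cage.

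The second comparison asked for the response to TSA, averaged over genotypes and housings. By limma 0 of 10 genes passed, against 0.662% of all genes (132), and 0 had an unadjusted p under 0.05. With the block 0 of 10 passed, against 4.51% of all genes (899), and 2 had an unadjusted p under 0.05, as did 15.9% of all genes. The block intervals of the 10 log2 differences lay between -0.24 and 0.44.

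Those 2 were Tac1, the precursor of substance P and neurokinin A, and Pvalb. Tac1 had a lowest value of 5.75, a median of 5.996 and a highest value of 7.22 in the 12 TSA arrays, against 5.39, 6.26 and 7.03 in the 16 arrays without TSA, so the pooled medians lay the other way from the difference within sets. Within sets 2, 3 and 4 the TSA difference was 0.11, 0.16 and 0.20, and the block gave 0.16 ± 0.06 (SE, limma adjusted p = 0.187). Without the block it was 0.06 (adjusted p = 0.994). Leaving out cbp+/- control replicate 4 (Tac1 6.10, the highest of set 3) from the block fit gave 0.20 with an adjusted p of 0.0420, the single left-out array at which Tac1 passed. Pvalb had 7.90, 8.13 and 8.44 in the TSA arrays, against 7.91, 8.25 and 8.59 without TSA. With the block its difference was -0.14 ± 0.05 (limma adjusted p = 0.0967), with -0.20, -0.04 and -0.17 within the sets. Without the block it was -0.07 (adjusted p = 0.942), and with the replicate block -0.02.

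The novelty and TSA comparisons share control arrays, so these Pvalb values are not independent. Its lowest group means were 8.05 ± 0.15 in cbp+/- mice and 8.08 ± 0.12 in wild-type mice after novelty with TSA (SD, n = 3 each). In wild-type mice after novelty, Pvalb had 8.21, 7.99 and 8.04 with TSA, against 8.24, 8.26 and 8.38 with vehicle, and these 3 and 3 arrays did not overlap. The difference was -0.22 ± 0.09 with the block (SE, limma adjusted p = 0.388).

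In the 4 backgrounds taken singly, 0 of 10 genes passed for TSA with or without the block. The shares of all genes that passed with the block were 0.0251% in cbp+/- mice and 0.0401% in wild-type mice in the cage, and 0.0201% in cbp+/- mice and 0.0702% in wild-type mice after novelty. They were 0% in each without the block. Vip had 6.21, 6.02 and 6.46 in cbp+/- mice after novelty with TSA, against 5.88, 5.80 and 6.21 after novelty with vehicle, so each TSA array was the higher of its set. This difference of 0.27 ± 0.09 with the block had an adjusted p of 0.464 (limma).

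**Figure D2:**
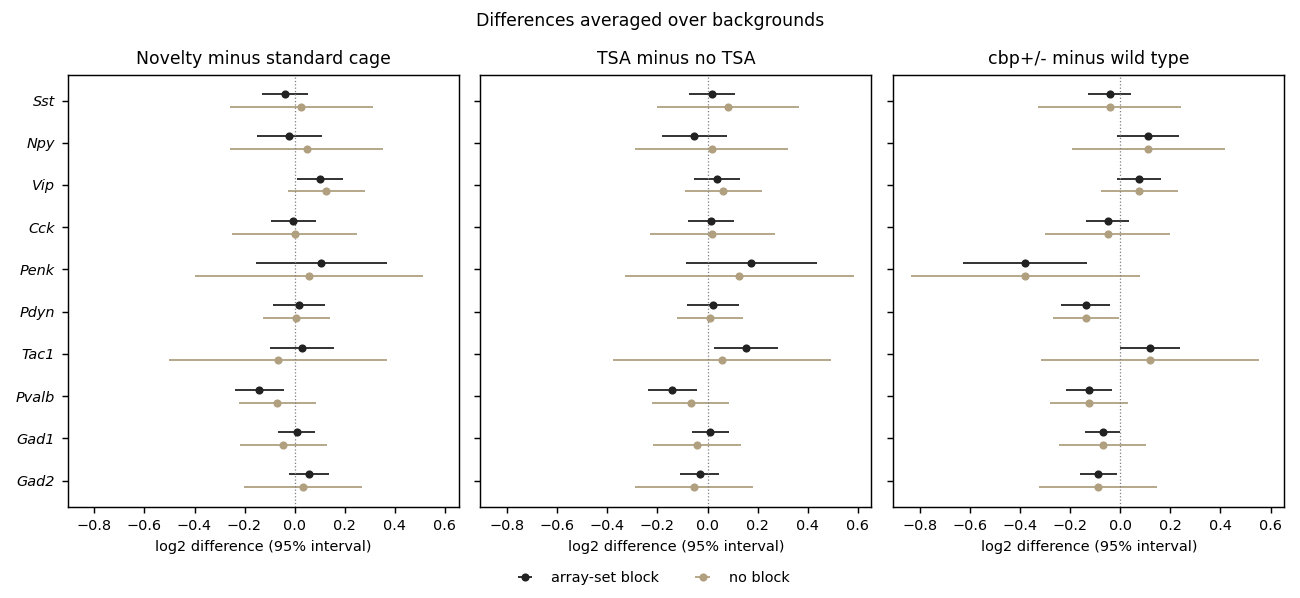
Log2 differences with 95% intervals for the 10 genes, from limma fits with array set as a block (black) and without it (tan), averaged over backgrounds: novelty minus standard cage, TSA minus no TSA, and cbp+/- minus wild type. No gene passes the adjusted threshold in any panel, and Penk by genotype (-0.38) lies farthest from 0.

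The third comparison asked for the effect of genotype over all conditions. By limma 0 of 10 genes passed, against 0% of all genes, and 1 of the 10 (Pdyn) had an unadjusted p under 0.05, as did 2.6% of all genes. With the block 0 of 10 passed, against 0.662% of all genes (132, of which 32 were higher and 100 lower in arrays labelled cbp+/-). With the block 5 of the 10 had an unadjusted p under 0.05, namely Penk, Pdyn, Pvalb, Gad1 and Gad2, each with the lower mean in arrays labelled cbp+/-, and 11.9% of all genes had such a p. The median difference of the 10 genes was -0.06, against -0.0052 for all genes.

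Penk, the enkephalin precursor, had the largest difference of the 10. Its values were 8.62, 7.45 and 8.85 in cbp+/- mice after novelty with TSA, against 8.999, 8.93 and 9.15 in wild-type mice. After novelty with vehicle they were 8.35, 7.90 and 8.83 in cbp+/- mice, against 8.87, 7.85 and 9.21 in wild-type mice. After TSA in the cage they were 9.73, 7.28 and 8.64 in cbp+/- mice, against 8.69, 7.94 and 9.15 in wild-type mice. In the naive controls they were 8.16 and 8.35 in cbp+/- mice, against 8.86 and 9.13 in wild-type mice, and in the vehicle controls 8.34, 7.73 and 8.64, against 8.60, 7.97 and 9.04. Replicates 1, 2 and 3 of a TSA or novelty group, and replicates 3, 4 and 5 of the controls, belong to sets 2, 3 and 4. The cbp+/- array was the lower of its set in every condition except the set 2 pair after TSA in the cage and the set 3 pair after novelty with vehicle.

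The genotypes overlapped, with Penk at a lowest value of 7.28, a median of 8.35 and a highest value of 9.73 in the 14 cbp+/- arrays, against 7.85, 8.90 and 9.21 in the 14 wild-type arrays. The difference was -0.38 ± 0.22 (SE) without the block and -0.38 ± 0.12 with it, a 0.769-fold level with a 95% interval of 0.647 to 0.913 (limma adjusted p = 0.163). Within sets 1, 2, 3 and 4 it was -0.74, -0.03, -0.58 and -0.40. In controls alone the block gave -0.48 ± 0.20 (adjusted p = 1.00; 0% of all genes passed there).

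The call on Penk depended on which arrays were in the fit. Replicate 1 of the cbp+/- mice with TSA in the cage, at 9.73, was the highest of the 28, and the other arrays of its set ran from 8.34 to 8.999. Without it the block fit gave -0.51 (limma adjusted p = 0.00141), and without array set 2 it gave -0.54 (adjusted p = 0.0217). Without the 3 arrays with raised choroid markers, of which it is one, the block fit gave -0.54 (adjusted p = 0.00292). Leaving out each of the 28 arrays in turn gave -0.51 to -0.29 with the block (limma adjusted p = 0.00141 to 0.332). Penk passed in 1 of these 28 block fits and in 0 of 28 without the block. An array of set 3 stood out the other way. Wild-type novelty TSA replicate 2 was at 8.93, and the other arrays of its set ran from 7.28 to 7.97. This wild-type value makes the set 3 difference (-0.58) more negative.

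Penk is also strongly expressed in the striatum, so markers of striatum and septum were read beside it. Of 8 such genes 6 were measured, and over the arrays their mean level ran from 6.47 to 6.73 in cbp+/- and from 6.51 to 6.92 in wild type. The dopamine receptor gene Drd2 ran from 5.23 to 5.83 in cbp+/- and from 5.39 to 6.19 in wild type. These levels lay near the medians of the arrays over all clusters (5.46 to 5.63), so they do not show that Drd2 was detected. Over the 28 arrays, with the mean of the array set taken from each value, Penk correlated with the mean of this list at r = 0.59 (0.62 without cbp+/- cage TSA replicate 1), with the other interneuron markers at 0.62 and with the neuropeptide receptors at 0.54. It gave 0.35 to 0.38 with the dentate, CA1 and pyramidal, and peptide processing lists, and -0.145 to 0.147 with the other 8 lists. These are descriptions over arrays that share pools across all genes. By genotype 1 of the 6 passed with the block, Ppp1r1b, the gene for DARPP-32, at -0.27 ± 0.05 (SE, limma adjusted p = 0.0127; 0.924 without the block). The others gave -0.19 (Drd1), -0.13 (Drd2), -0.05 (Ptpn5), 0.07 (Rgs9) and 0.07 (Zic1), with adjusted p of 0.104 to 0.830. Their part in the Penk values was not tested.

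**Figure D3:**
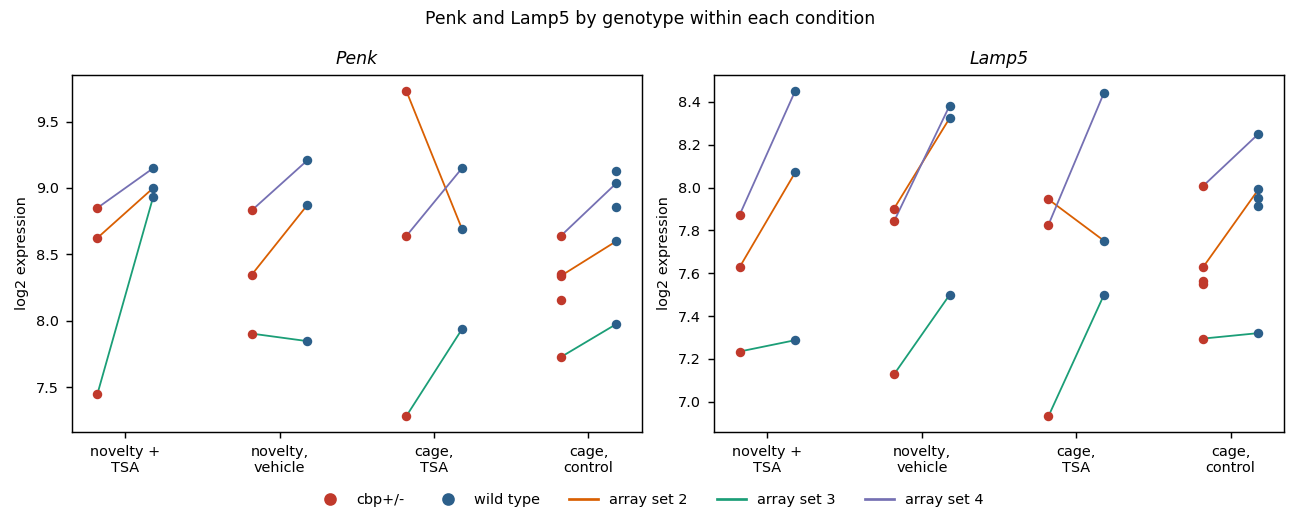
Log2 expression of Penk (left) and Lamp5 (right) in cbp+/- (red) and wild-type (blue) arrays of each condition. Lines join the cbp+/- and wild-type arrays of the same condition and array set, and the naive arrays of set 1 are not joined. The red Penk point at 9.73 is cbp+/- cage TSA replicate 1, and the mean Lamp5 difference is negative in all 4 array sets (-0.25 to -0.49).

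The dynorphin precursor Pdyn had a lowest value of 5.51, a median of 5.71 and a highest value of 6.10 in cbp+/- arrays, against 5.63, 5.88 and 6.08 in wild-type arrays. As with Vip, levels this near the array medians do not show that Pdyn was detected. Its difference with the block was -0.14 ± 0.05 (SE, limma adjusted p = 0.208), of which set 3 gave -0.32 and sets 1, 2 and 4 gave -0.02, -0.01 and -0.08. Pvalb gave -0.13 ± 0.04 (adjusted p = 0.227), with -0.22 and -0.18 in sets 2 and 3 and -0.04 and -0.01 in sets 1 and 4.

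Both decarboxylase genes had a small negative difference by genotype. Gad1 had 9.50, 9.75 and 10.16 in cbp+/- arrays (lowest, median and highest), against 9.62, 9.83 and 10.13 in wild type, a block difference of -0.07 ± 0.03 (SE, limma adjusted p = 0.415). Gad2 had 8.40, 8.76 and 9.28, against 8.52, 8.90 and 9.38, a block difference of -0.09 ± 0.04 (adjusted p = 0.316). As folds these are 0.952 (95% interval 0.906 to 0.999) and 0.941 (0.893 to 0.991). Within sets 1 to 4 the Gad1 difference was 0.04, -0.03, -0.10 and -0.11, and that of Gad2 was -0.05, -0.04, -0.11 and -0.13.

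Npy and Tac1 lay on the other side of 0. The block difference was 0.11 ± 0.06 for Npy (SE, limma adjusted p = 0.489) and 0.12 ± 0.06 for Tac1 (adjusted p = 0.438). Within the 4 sets the Npy difference was 0.04 to 0.16, whereas that of Tac1 was -0.16 in set 1 and 0.05 to 0.20 in the others. Vip (0.07 ± 0.04), Sst (-0.04 ± 0.04) and Cck (-0.05 ± 0.04) had intervals that held 0.

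Whether the responses differed between genotypes or housings was tested with interaction terms. For genotype by novelty, genotype by TSA and TSA by novelty, 0 of 10 genes passed, against 0% of all genes, with and without the block. With the block the count at an unadjusted p under 0.05 was 0, 1 and 0 of 10, against 4.86%, 8.09% and 2.83% of all genes. That 1 was Vip, with a genotype by TSA term of 0.18 ± 0.09 (SE, limma adjusted p = 0.612), which did not pass.

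Vehicle-injected controls were set against naive controls, over both genotypes. Naive arrays form an array set of their own, so injection and array set cannot be told apart here and the array-set block could not be fitted. By limma 0 of 10 genes passed, against 2.41% of all genes (480), and 1 had an unadjusted p under 0.05, as did 14.4% of all genes. With a block on the replicate number of the titles, which does not pair the controls with the other arrays, 5 of 10 passed (Sst, Pdyn, Tac1, Gad1 and Gad2). The share of all genes in that fit is not given here, so this count is not read as a response to injection. The gene with the unadjusted p was Pvalb, with 8.27, 8.02 and 8.50 in cbp+/- and 8.46, 8.25 and 8.59 in wild-type vehicle controls, against 7.91 and 8.02 in cbp+/- and 7.97 and 8.04 in wild-type naive controls. The difference was 0.36 ± 0.10 (SE, adjusted p = 0.0616). It passed when wild-type control replicate 4 (adjusted p = 0.0456), cbp+/- control replicate 4 (0.0303) or cbp+/- cage TSA replicate 3 (0.0425) was left out.

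The receptors of these peptides were read next, from a list of 17 genes, all measured. With the block 2 of 17 rose with TSA and 0 fell (1 and 0 without the block), and 0 of 17 passed for novelty or genotype. Of all genes 4.51% passed for TSA with the block and 0.662% without it. The median TSA difference of the list was 0.02, against 0.0028 for all genes. Sstr2, a somatostatin receptor that lowers excitability, had 7.03, 7.11 and 7.20 in cbp+/- mice after novelty with TSA, against 6.68, 7.05 and 6.97 after novelty with vehicle. In wild-type mice after novelty it had 7.07, 7.16 and 6.94 with TSA, against 6.66, 6.81 and 6.58 with vehicle. In the cage it had 7.15, 6.88 and 7.12 in cbp+/- mice with TSA, against 6.47 to 6.71 in the 5 controls, and 7.04, 7.44 and 7.13 in wild-type mice with TSA, against 6.68 to 7.11 in the 5 controls. The TSA arrays lay above every array without TSA in cbp+/- mice in the cage and in wild-type mice after novelty, and the arrays overlapped in the other two backgrounds.

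Averaged over backgrounds, Sstr2 rose with TSA by 0.34 ± 0.06 (SE, limma adjusted p = 0.00477), and by 0.33 ± 0.06 with the block (adjusted p = 0.00112). Within sets 2, 3 and 4 the difference was 0.41, 0.31 and 0.26. It passed in all 28 fits that left out 1 array, with and without the block, and without array set 2 it gave 0.29 (adjusted p = 0.0603). Its ligand's gene Sst gave 0.02 ± 0.04 in the same block fit (adjusted p = 0.929). Npy1r, a receptor of neuropeptide Y, rose with TSA in the block fit alone, by 0.19 ± 0.05 (adjusted p = 0.0277), against 0.04 (adjusted p = 0.989) without the block. It lost the call when any of 8 single arrays or any of sets 2, 3 and 4 was left out, with block differences of 0.17 to 0.22 over the single arrays and adjusted p of 0.0104 to 0.0720.

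The enzymes and granins that process and store peptides formed a list of 12 genes, of which 11 were measured. With the block 1 of 11 rose with novelty and 1 of 11 fell in cbp+/-, and 0 passed for TSA. Without the block 0 of 11 passed in each. Of all genes 0.476% passed for novelty and 0.662% for genotype with the block. Pcsk1, the prohormone convertase that cleaves several of these precursors, was higher after novelty by 0.31 ± 0.05 with the block (SE, limma adjusted p = 0.00132), with 0.32, 0.28 and 0.33 within sets 2, 3 and 4. Without the block it was 0.28 ± 0.08 (adjusted p = 0.374). It had 7.81, 7.53 and 7.69 after novelty with TSA and 8.05, 7.50 and 7.69 after novelty with vehicle in cbp+/- mice, against 7.77, 7.30 and 7.30 after TSA in the cage and 7.56, 7.18 and 7.29 in vehicle controls. In wild-type mice it had 7.72, 7.69 and 7.81 after novelty with TSA and 8.31, 7.59 and 7.67 after novelty with vehicle, against 7.71, 7.32 and 7.39 after TSA in the cage and 7.56, 7.41 and 7.57 in vehicle controls. Every novelty array was higher than the cage array of the same genotype, set and drug. It passed in all 28 block fits that left out 1 array, and without array set 4 the adjusted p was 0.0534.

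**Figure D4:**
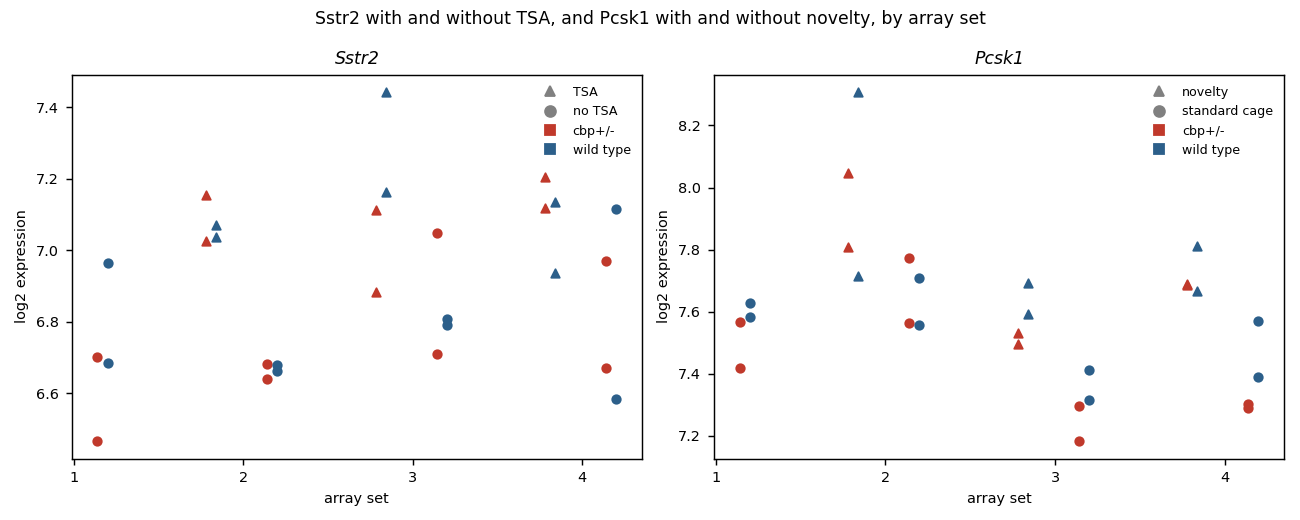
Log2 expression by array set of Sstr2 with TSA (triangles) and without (circles), left, and of Pcsk1 after novelty (triangles) and in the standard cage (circles), right; red, cbp+/-; blue, wild type. Within sets 2, 3 and 4 the mean TSA difference of Sstr2 is 0.41, 0.31 and 0.26, and the mean novelty difference of Pcsk1 is 0.32, 0.28 and 0.33.

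Vgf, a granin-like peptide precursor induced by activity and growth factors, was lower in arrays labelled cbp+/- with the block, by -0.23 ± 0.05 (SE, limma adjusted p = 0.0204; 1.00 without the block). The difference was -0.19, -0.14, -0.36 and -0.18 within sets 1 to 4. It lost the call without wild-type novelty vehicle replicate 3 (adjusted p = 0.0565), cbp+/- novelty vehicle replicate 3 (0.0544) or cbp+/- novelty TSA replicate 2 (0.0570), and without array set 3 (0.216) or 4 (0.170).

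Of 27 other interneuron markers and transcription factors 26 were measured, and with the block 1 was lower in cbp+/- and 0 passed for novelty or TSA. For genotype 0.662% of all genes passed with the block. The median genotype difference of these 26 was -0.06, against -0.0052 for all genes, and 7 of 26 had a positive difference. The gene that passed was Lamp5, which marks neurogliaform and related interneurons and is also expressed by excitatory neurons. Lamp5 gave -0.35 ± 0.06 with the block (SE, limma adjusted p = 0.00223) and -0.35 ± 0.15 without it (adjusted p = 1.00). Within sets 1 to 4 the difference was -0.37, -0.26, -0.25 and -0.49. In the naive arrays it had 7.56 and 7.55 in cbp+/-, against 7.91 and 7.95 in wild type, and these did not overlap. The call held in all 28 block fits that left out 1 array and was lost without array set 4 (-0.28, adjusted p = 0.170).

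A few markers of other cells also passed for genotype: 5 of 43 over 7 lists with the block, all lower in cbp+/-, and 0 of 43 without it (adjusted p = 1.00 for each of the 5). Of all genes 0.662% passed with the block and 0% without it. With the block the CA1 gene Wfs1 was at -0.41 ± 0.05 (SE, limma adjusted p = 0.000343) and Mpped1 at -0.17 ± 0.04 (adjusted p = 0.0390), the dentate gene Tdo2 at -0.29 ± 0.07 (0.0347), the astrocyte gene Gfap at -0.28 ± 0.06 (0.0127) and the fibroblast gene Dcn at -0.31 ± 0.04 (0.000522). Tdo2 ran from 3.61 to 4.76 over the arrays, below the array medians (5.46 to 5.63), so its levels do not show that it was detected. By list, 2 of 7 CA1 and pyramidal, 1 of 6 dentate (Tdo2), 1 of 6 astrocyte and 1 of 6 meningeal genes passed, and 0 of 5 oligodendrocyte, 0 of 6 microglia and 0 of 7 choroid plexus genes did. Their part in the differences of Lamp5, Vgf and Penk was not tested. The 6 measured genes of GABA packaging, breakdown and uptake, among them the vesicular transporter gene Slc32a1, gave 0 calls for novelty, TSA or genotype.

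Among themselves the 10 genes shared little once array set was taken out. Over all 28 arrays 15 of the 45 pairs correlated above 0.5, with the 2 decarboxylase genes highest (r = 0.90). With the mean of the array set taken from each value 4 pairs did: Sst with Cck (0.59), Penk with Pdyn (0.56), Gad1 with Gad2 (0.53) and Penk with Gad1 (0.51). Pvalb and Tac1 gave the lowest value, -0.61, against 0.12 over all arrays.

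The genes whose levels followed each of the 10 most closely were named by the same measure, the correlation over 28 arrays with set means taken out. Penk was nearest to the cell-adhesion gene Sdk2 (0.75), the dopamine receptor gene Drd2 (0.72) and the growth factor gene Igf1 (0.71). Gad2 was nearest to Kcnip1 (0.78), a potassium channel subunit gene of interneurons, Sst to Bdh1 (0.78), Cck to the transcription factor gene Tcf4 (0.82) and Pvalb to Gja1 (0.76), the gene for the astrocyte gap-junction protein connexin 43. Npy had Gm11149 (0.79), Tac1 had Sh3yl1 (0.77), Pdyn had 4921511C20Rik (0.75), Gad1 had Arsa (0.74) and Vip had Hspa4l (0.70) as the nearest gene. Each is the highest of the correlations with all other genes tested, over arrays that share their pools.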

How the data were processed

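Hippocampal RNA was measured on 28 arrays, and the values are log2 expression values per transcript cluster as deposited by the authors, whose software was GeneSpring GX 11, per the labels' protocols, with RMA per the submitters' processing notes; no source used here gives the genome build. Of 35556 clusters 21789 had 1 gene symbol, and the cluster with the highest mean was kept, which left 19938 genes.

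The test was limma 3.58.1 (run in R 4.3.3; 1 mean per group, all 28 arrays, empirical Bayes variances, two-sided, Benjamini-Hochberg over all genes, threshold 0.05) in 14 comparisons, and the fits were tested on simulated data. The number of arrays limits the precision. The alternatives were an array-set block, a block on the replicate number of the titles, left-out arrays and sets, vehicle controls only, array weights, quantile normalization, a filter on dim genes, the mean of all clusters of a gene, and the exclusion of arrays whose choroid plexus markers stood over 0.9 above the group median. The exclusion together with the array-set block was added after seeing the data. The genes and lists, and the array sets, were chosen with earlier results of these data known. All 10 genes were named, with list genes that passed in either fit (at most 4 per list and comparison) and the genes nearest in pattern. Some genes of the lists are not reported here.

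To check the pairing, deviations from group means were correlated over all genes. Among TSA and novelty arrays, 45 pairs with the same number gave 0.52 to 0.80, and pairs with different numbers gave -0.63 to -0.07. Same-numbered controls gave -0.58 to 0.23 (36 pairs), whereas vehicle controls 3, 4 and 5 paired with the numbers 1, 2 and 3 of other groups gave 0.41 to 0.74 (36 pairs), which is the basis of the array sets. So the title numbers pair the TSA and novelty arrays and not the controls.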

Additional observations from a re-analysis of the deposited data

Results flagged for a closer look

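Vip in wild-type control replicate 5 stood apart from the other 4 wild-type controls, with a log2 level of 6.31 against 5.79 to 5.84. This was the only outlying array among the 20 pairs of gene and group tested (the 10 genes in the control groups of 5), and chance flags about 1 in 20. The array belongs to array set 4, in which Vip ran from 6.06 to 6.46 over all 8 arrays.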

How the results depend on the processing

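Over the 14 comparisons, 909 of 918 recomputed counts of the 10 genes past the threshold were within 1.5 times the reported count of 0. The other 9 were as follows. For TSA over all backgrounds, the array-set block with 1 array left out gave counts of 0 to 1 (Tac1). For genotype over all conditions, the array-set block gave 0 to 1 (Penk) with 1 array left out, 1 (Penk) without array set 2, and 1 (Penk) without the arrays with raised choroid markers. For vehicle against naive controls, the replicate block gave 5 (Sst, Pdyn, Tac1, Gad1 and Gad2), array weights gave 1 (Pvalb, limma adjusted p = 0.00716), and left-out arrays gave 0 to 1 (Pvalb). The cause was not tested, and the shares of all genes that passed in these fits are not given here. The array-set block could not be fitted for that comparison, since naive arrays are a set of their own, nor could the fit with vehicle controls only. The replicate block changed no count of the 10 genes in the other 13 comparisons. The TSA difference of Tac1, 0.06 without a block, became -0.13 with array weights and -0.0528 to 0.1608 with 1 array left out, while the array-set block gave 0.16. The TSA difference of Npy1r, 0.04, became -0.0622 with the replicate block and -0.0035 with array weights. Since the sets were found in the tested values, p-values with the array-set block may be too small, which was not tested. The labels do not give the position of the array sets in scanning or hybridisation. With 3 to 5 pools per group, a gene that did not pass may still differ by any amount within its printed interval.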

Other observations

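Among list genes, 2 receptors of neuropeptide Y were lower in vehicle-injected than in naive controls. Npy1r had 7.07, 6.96 and 6.84 in cbp+/- and 6.87, 7.09 and 6.90 in wild-type vehicle controls, against 7.77 and 7.52 in cbp+/- and 7.79 and 7.76 in wild-type naive controls, and the arrays did not overlap. The difference was -0.76 ± 0.10 (SE, limma adjusted p = 0.000263), and it passed in all 28 fits that left out 1 array. Npy2r gave -0.67 ± 0.14 (adjusted p = 0.0133), but not without wild-type control replicate 1 (adjusted p = 0.0912) or cbp+/- control replicate 1 (0.102). Chga, the gene for the dense-core vesicle protein chromogranin A, was higher in vehicle-injected controls by 0.42 ± 0.09 (adjusted p = 0.0141) and lost the call when any of the 4 naive arrays was left out (adjusted p = 0.0593 to 0.0828) and with the replicate block (0.0994). Injection and array set cannot be told apart in these values.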
